A study of Mus musculus with 48 samples.

Results

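The diacylglycerol kinases are a family of lipid kinases, and their 10 mouse genes (Dgka, Dgkb, Dgkd, Dgke, Dgkg, Dgkh, Dgki, Dgkk, Dgkq and Dgkz) were picked by symbol from the 27281 genes of a normalized RNA-Seq abundance table. The table held 48 samples from 16 conditions, with 3 samples each, of conditionally immortalized mouse striatal progenitor lines. STHdhQ111 cells (labelled C57BL/6), a homozygous knock-in of mutant huntingtin, were cultured for 24 hours in serum-free medium with DMSO vehicle or 1 of 14 compounds, and wild-type STHdhQ7 cells with vehicle only. Each genotype was represented by a single line, so that genotype and line cannot be told apart. The samples of a condition differed in collection day or time by the labels. How far their cultures were kept separate before treatment is not stated, so p-values measure the spread between these samples of a single line. The compound of most interest here was diacylglycerol kinase inhibitor II (DKI), given at 10 µM, as were meclizine, cyproheptadine, loxapine and selisistat. Pizotifen was given at 5 µM, cysteamine at 250 µM, sodium butyrate at 1 mM, 4-deoxypyridoxine (DOP) at 4 mM, fingolimod phosphate at 250 nM, trichostatin A at 10 nM, nortriptyline at 1 nM, and nicotinamide and haloperidol at 0.5 nM. Samples were collected on 3 days at 3 times a day, and the 3 vehicle samples shared day and time with the selisistat and STHdhQ7 samples, and for replicates 2 and 3 with the DKI and cyproheptadine samples. By the labels, replicate 1 of DKI and of cyproheptadine was collected on day 3, where replicate 1 of every other condition was collected on day 1, so that DKI had no sample of day 1. If that label is wrong, the day term of the fit is too, and a fit without it is among the alternatives. The other 11 compounds shared no day and time with the vehicle.

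Diacylglycerol kinases add a phosphate to diacylglycerol, a lipid messenger made by phospholipase C, and turn it into phosphatidic acid, itself a signalling lipid and the starting point for the resynthesis of phosphatidylinositol. By doing so they limit the activation of diacylglycerol-binding proteins such as protein kinase C. The family is divided into types by domain structure: type I (Dgka, Dgkb, Dgkg) carries calcium-binding EF hands, type II (Dgkd, Dgkh, Dgkk) a pleckstrin homology domain, type III (Dgke) prefers arachidonoyl diacylglycerol, type IV (Dgkz, Dgki) carries ankyrin repeats and a MARCKS-like region, and type V (Dgkq) has 3 cysteine-rich domains. Dgkb and Dgki are best known from neurons of the brain, with Dgkb prominent in the striatum.

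The cells carried RNA of 6 of the 10 genes, at least 1 from each type. On the deposited log2 scale the mean over all samples was 9.15 for Dgkz, 8.99 for Dgkd, 8.05 for Dgke, 7.88 for Dgkq, 6.68 for Dgka and 5.10 for Dgkh. The other 4 members lay under the minimum mean of 1 set for testing, with means of 0.33 for Dgki, -1.10 for Dgkg, -2.07 for Dgkk and -2.23 for Dgkb. These 4 genes hardly varied: the difference between the highest and the lowest of the 48 samples was 0.15 for Dgki, 0.082 for Dgkg, 0.054 for Dgkk and 0.0097 for Dgkb, and they were not tested. Without counts, the depth behind such values is unknown, and they do not separate a very low level from none.

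Levels can be compared between genes only per length, so 2 to the power of the deposited value was divided by the kilobases covered by a gene's exons. In the STHdhQ111 vehicle this level was 93.9 ± 6.93 per kb (SD, n = 3) for Dgkz, 76.5 ± 1.80 for Dgkd, 34.4 ± 2.59 for Dgkq, 31.7 ± 0.513 for Dgke, 20.2 ± 2.25 for Dgka and 2.14 ± 0.0260 for Dgkh. Dgki followed at 0.204 per kb, Dgkg at 0.0516, Dgkk at 0.0332 and Dgkb at 0.0187. Among the 6 expressed members no neighbours in this order overlapped over the 3 vehicle samples, and the closest were Dgkq, from 32.4 to 37.3 per kb, and Dgke, from 31.2 to 32.2. The order of the 4 lowest is not supported by their spread, since their values hardly vary on this scale. Among 18156 genes with a length, 73.1% lay below Dgkz per kb, 69.0% below Dgkd, 33.3% below Dgkh and 0.226% below Dgkb. The order among Dgkd, Dgke, Dgkq and Dgka depended on the length used. With the longest coding sequence in place of all exons, Dgke ranked 2 and Dgkd 3, and with the longest transcript Dgka ranked 4 and Dgke 5. In the DKI samples the mean of Dgkd was 104.8 ± 11.3 per kb (SD, n = 3) and that of Dgkz 93.6 ± 0.596, and their ranges overlapped.

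**Figure D1:**
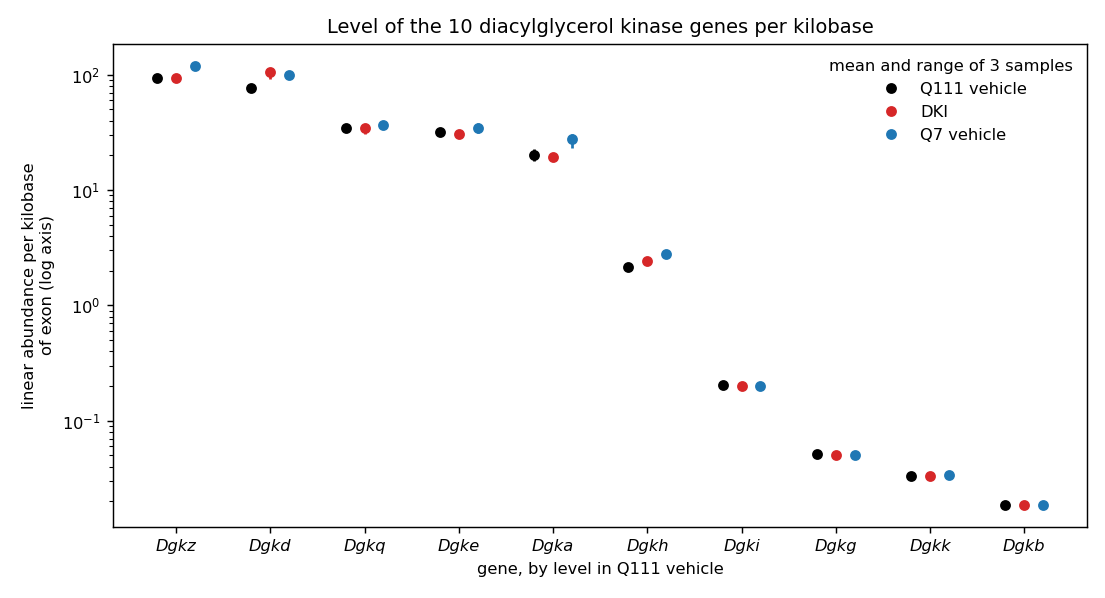
Level of the 10 diacylglycerol kinase genes per kilobase of exon (vertical log axis) in STHdhQ111 vehicle (black), DKI (red) and STHdhQ7 vehicle (blue), with the mean as a point and the range of 3 samples as a line, hidden where it is narrower than the point. Dgkz and Dgkd are the highest and Dgki, Dgkg, Dgkk and Dgkb lie below 0.3 per kb in all 3 conditions.

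The type II gene Dgkd, whose product diacylglycerol kinase delta is known from the regulation of receptor endocytosis and glucose metabolism, was the member that differed most after DKI. Its log2 abundance was 9.05, 9.06 and 8.99 in the vehicle samples and 9.56, 9.30 and 9.59 in the DKI samples. All 3 DKI samples lay above all vehicle samples, with replicate 2 the lowest of them. Dgkd was higher by 0.45 ± 0.074 on the log2 scale (SE), or 1.37-fold, with an adjusted p of 4.8e-06 (limma across 13409 genes, collection day as a term, Benjamini-Hochberg adjustment). Of the genes tested, 10.9% had a larger difference in either direction. Between samples of the same collection day and time, Dgkd was higher with DKI by 0.24 for replicate 2 and by 0.59 for replicate 3. The adjusted p stayed at or below 0.0084 in all 15 alternative fits, in which the difference ranged from 0.40 to 0.55.

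Dgkh, the type II gene of the eta isoform, closest in structure to Dgkd, moved in the same direction by less. Its log2 abundance was 5.17, 5.19 and 5.20 with vehicle and 5.43, 5.33 and 5.37 with DKI, with no overlap. The difference was 0.19 ± 0.075 (SE, log2, adjusted p = 0.037, limma), and 38.8% of the genes tested had a larger one. Within the same collection day and time it was 0.14 and 0.18. This call was not stable: it was lost in 6 of 14 alternative fits, with an adjusted p of 0.18 when only the compared samples were fitted, 0.087, 0.074 and 0.063 without vehicle replicates 1, 2 and 3, and 0.13 and 0.071 without DKI replicates 1 and 3. On GRCm38 (GENCODE M21) Dgkd lies at chr1:87853287-87945180 on the plus strand and Dgkh at chr14:78558750-78732776 on the minus strand. The third type II gene, Dgkk, was among the 4 not tested.

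Dgkd and Dgkh were the members called with DKI, and the 250 bases before their start sites are shown here. They are given 5′ to 3′ on the gene's strand from RefSeq on GRCm38.p6, in which all 10 members had an entry, and the capitals mark the GC box GGGCGG or its reverse complement CCGCCC. For Dgkd (1 start site) the window was chr1:87853037-87853286, plus strand, and for Dgkh (the outermost of 3 start sites) chr14:78732730-78732979, minus strand.
Dgkd: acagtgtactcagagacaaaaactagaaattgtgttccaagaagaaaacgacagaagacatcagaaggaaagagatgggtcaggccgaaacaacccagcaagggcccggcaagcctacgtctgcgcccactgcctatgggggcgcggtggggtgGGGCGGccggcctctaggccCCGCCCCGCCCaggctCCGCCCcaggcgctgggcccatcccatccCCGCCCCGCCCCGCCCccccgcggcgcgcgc
Dgkh: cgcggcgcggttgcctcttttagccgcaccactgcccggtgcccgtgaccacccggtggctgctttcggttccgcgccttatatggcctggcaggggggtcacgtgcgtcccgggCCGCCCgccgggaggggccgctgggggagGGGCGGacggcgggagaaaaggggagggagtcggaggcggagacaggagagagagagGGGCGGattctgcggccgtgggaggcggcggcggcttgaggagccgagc
The Dgkd window was 67.2% G and C and held 7 GC boxes, in runs that follow each other closely. The Dgkh window was 73.6% G and C and held 3, and the windows of the other 2 Dgkh start sites held none. The tested members that were not called had GC boxes too, with 3 for Dgke, 1 for Dgkq, up to 3 for Dgkz and up to 3 for Dgka in a window. A GC box on either strand was found in 32.7% of 32851 promoter windows of this length. The CCAAT box (CCAAT, either strand, 33.8% of windows) and the C/EBP-ATF composite element (TTGCATCA, either strand, 0.791% of windows) matched neither printed window. A match is a description of the letters only.

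The other 4 expressed members did not pass the test with DKI. Dgka, the type I calcium-regulated isoform, had log2 values of 6.57, 6.74 and 6.42 with vehicle and of 6.55, 6.54 and 6.51 with DKI, a difference of -0.05 (95% confidence interval -0.24 to 0.15, adjusted p = 0.74, limma). Dgke, the isoform that feeds the phosphatidylinositol cycle, was 8.05, 8.08 and 8.03 with vehicle and 8.03, 7.96 and 8.02 with DKI, a difference of -0.05 (interval -0.18 to 0.08, adjusted p = 0.58, limma), although all DKI samples lay just below the vehicle samples. Dgkq, the type V isoform theta, differed by -0.01 (interval -0.17 to 0.16, adjusted p = 0.96, limma). Dgkz, the type IV isoform zeta with a known nuclear form, was measured at 9.12, 9.16 and 9.32 with vehicle and at 9.20, 9.19 and 9.20 with DKI, a difference of 0.00 (interval -0.13 to 0.12, adjusted p = 0.98, limma). These intervals leave room for changes of up to the size seen for Dgkh in some of the genes, so that the values do not show equal levels.

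Thus 2 of the 6 tested members were called with DKI, both higher, against 42.3% of all tested genes called (20.4% higher and 21.9% lower). The median difference was 0.00 over the 6 members and -0.01 over all genes. Complete separation of the 3 DKI from the 3 vehicle samples was seen in 51.5% of all tested genes. The share of members called therefore did not stand above the background of a compound with many changed genes. The plot of values by sample shows the DKI points of Dgkd and Dgkh to the right of the vehicle points, those of Dgka and Dgkz within the vehicle range, and those of Dgkq overlapping it.

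**Figure D2:**
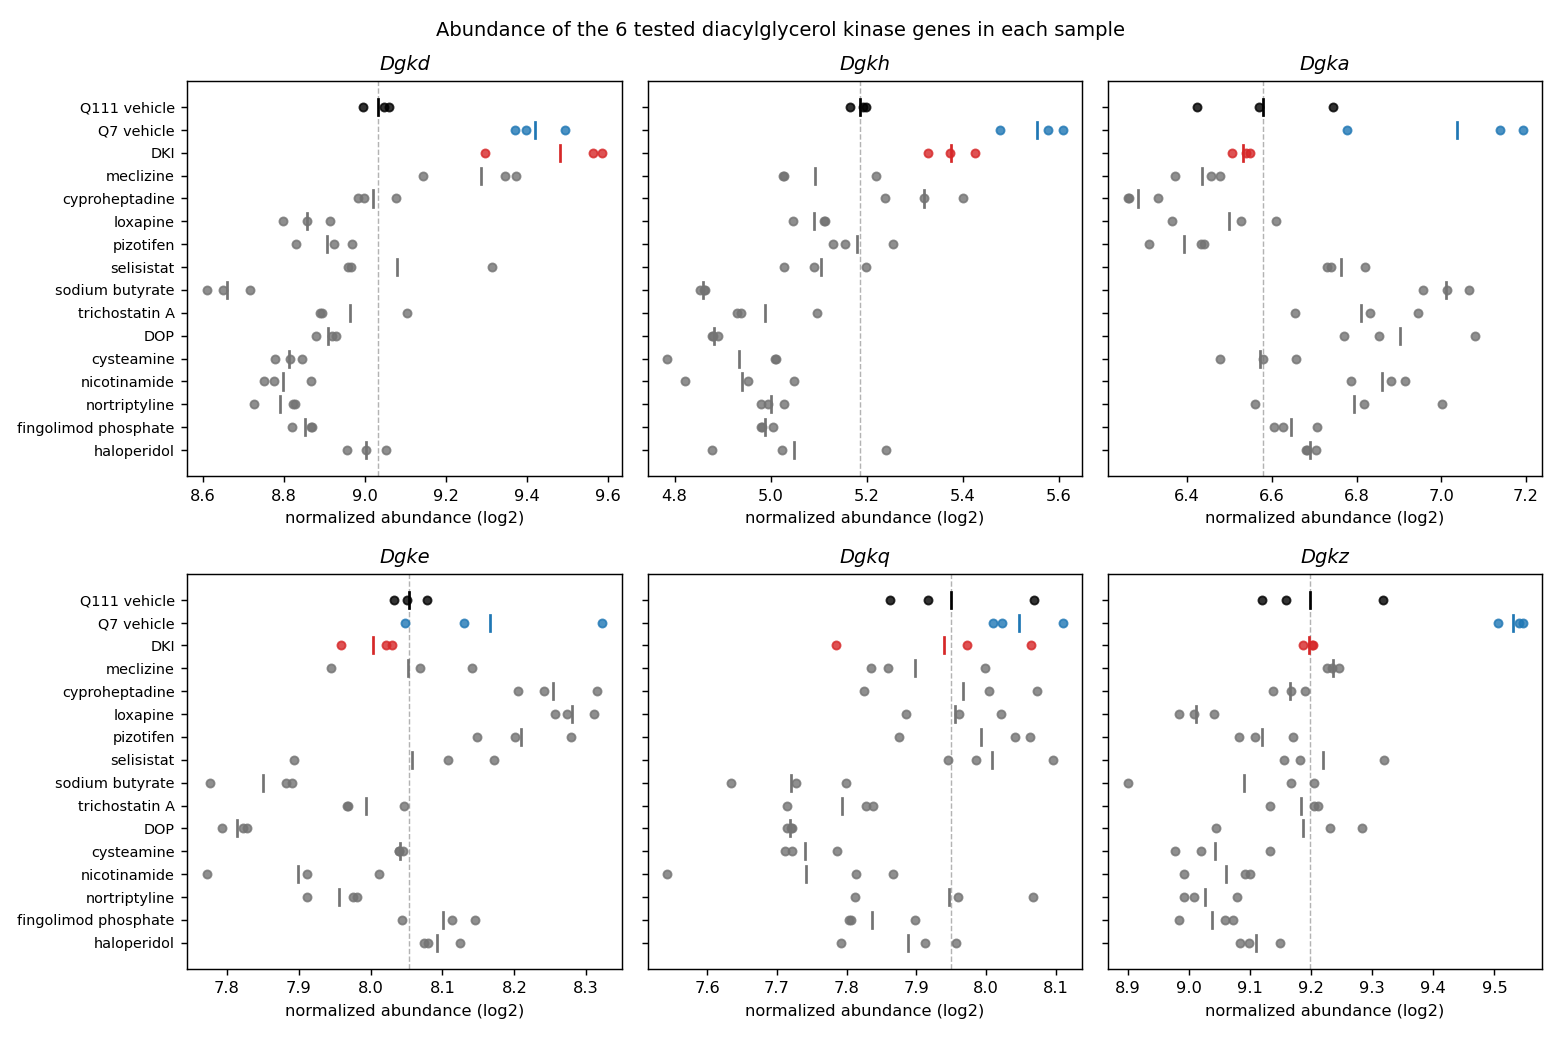
Normalized abundance on the deposited log2 scale (horizontal axis) of the 6 tested genes in each of the 48 samples, by condition (vertical axis), with the mean of 3 samples as a short line and the STHdhQ111 vehicle mean as a dashed line. Dgkd has its highest condition mean with DKI (9.48) and its lowest with sodium butyrate (8.66), and the axes start at a different value for each gene.

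DKI was then compared directly with the 4 other compounds given at 10 µM and with the mean of the 13 other compounds. Against cyproheptadine, collected at the same days and times, 3 of 6 members were called against 28.6% of genes: Dgkd was 0.46 ± 0.073 higher (SE, log2, adjusted p = 5.3e-06), Dgke was at -0.25 ± 0.064 (adjusted p = 0.0027) and Dgka 0.25 ± 0.096 higher (adjusted p = 0.0496, lost in 10 of 15 alternatives, among them without any of the 6 samples, at 0.061 to 0.13), all by limma. Against loxapine 4 members were called (37% of genes), with Dgkd 0.63 ± 0.074 higher (adjusted p = 1.4e-08), Dgkh 0.29 and Dgkz 0.18 higher, and Dgke at -0.28. The Dgkz call was lost without loxapine replicate 3 (adjusted p = 0.069, limma) or with only the compared samples fitted (0.058), and in the latter fit the Dgkh call too (0.056). Against selisistat 2 were called (43.8% of genes), Dgkd at 0.40 and Dgkh at 0.27 (limma adjusted p = 2.5e-05 and 0.0031). The Dgkd call against selisistat was lost when only the compared samples were fitted, with an adjusted p of 0.15, and selisistat replicate 2, at 9.31, stood above its other samples at 8.96.

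Against meclizine 1 member was called (8.11% of genes). Dgkh was 0.28 ± 0.075 higher with DKI (SE, log2, limma adjusted p = 0.013), a call lost without meclizine replicate 1 (adjusted p = 0.056) or 2 (0.086), without DKI replicate 1 (0.099), or when only the compared samples were fitted (0.31). Dgkd was 9.34, 9.14 and 9.37 with meclizine, overlapping with DKI, and the difference between DKI and meclizine was 0.20 (95% confidence interval 0.05 to 0.34, limma adjusted p = 0.097). Against the mean of the 13 other compounds 2 members were called (48.6% of genes): Dgkd was 0.56 ± 0.055 higher (adjusted p = 5.2e-11) and Dgkh 0.34 ± 0.055 higher (adjusted p = 2.4e-06, limma). These SEs and p-values reflect the spread within conditions and not that between the 13 compounds. Sodium butyrate, DOP, loxapine, nicotinamide, nortriptyline and cysteamine shared no day and time with DKI.

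In the wild-type STHdhQ7 line 4 of the 6 tested members were higher than in the STHdhQ111 line, both with vehicle, against 55.8% of genes called (29.2% higher and 26.6% lower). Dgka was 6.57, 6.74 and 6.42 in STHdhQ111 and 6.78, 7.14 and 7.19 in STHdhQ7, a difference of 0.46 ± 0.096 (SE, log2, limma adjusted p = 9.5e-05). Dgkd was 9.49, 9.40 and 9.37 in STHdhQ7, 0.39 ± 0.073 above STHdhQ111 (adjusted p = 2.2e-05, limma). For these genes all wild-type samples lay above all knock-in samples, as was also so for Dgkh and Dgkz.

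Dgkh was 5.61, 5.58 and 5.48 in STHdhQ7, 0.37 ± 0.074 above STHdhQ111 (limma adjusted p = 4.9e-05). Dgkz was 9.55, 9.51 and 9.54, a difference of 0.33 ± 0.061 (limma adjusted p = 1.4e-05). The calls for Dgka, Dgkd and Dgkz held in all 15 alternative fits, and that for Dgkh in the 14 that tested it. Dgke (0.11, adjusted p = 0.14) and Dgkq (0.10, adjusted p = 0.31) did not pass by limma, though Dgke passed without STHdhQ7 replicate 3 (adjusted p = 0.031). The median over the 6 members was 0.35, against 0.00 over all genes, and 58.2% of all genes had no overlap between the lines. The levels of Dgkd with DKI (9.30 to 9.59) and in STHdhQ7 (9.37 to 9.49) overlapped, and the difference between these groups was not tested.

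Over the 14 compounds, 19 of the 84 member-by-compound differences from vehicle were called, 7 higher and 12 lower, as marked in the map of differences. This was 22.6% of the members' differences, against 17% of those of all genes over the same compounds, and all of them share the 3 vehicle samples. Against this vehicle Dgkh was called 1 time higher and 4 times lower, Dgkd and Dgke 4 times each with equal numbers of both directions, Dgka 3 times, Dgkq 2 times and Dgkz 1 time. None of the 4 lower calls of Dgkh was made against compounds of the same collection days and times, where the differences were between -0.11 and -0.01. The compounds of these 4 calls (sodium butyrate, DOP, cysteamine and nicotinamide) shared their days and times, so the reference of each held the others. That comparison therefore could not detect a lowering that they had in common. The vehicle had no sample of these days and times, so for the 4 calls against vehicle compound and collection slot cannot be told apart. Nortriptyline and loxapine, of the same days and times, had Dgkh at -0.19 and -0.09 against vehicle, neither called. The most members were called with sodium butyrate, a histone deacetylase inhibitor: 5 of 6, against 37.5% of genes. Dgka was 7.01, 7.07 and 6.96 with sodium butyrate, a difference from vehicle of 0.43 ± 0.096 (SE, log2, limma adjusted p = 4.7e-04). Dgkd was 8.61, 8.72 and 8.65, at -0.37 ± 0.073 (limma adjusted p = 1.1e-04).

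With sodium butyrate Dgkh (-0.33), Dgkq (-0.23) and Dgke (-0.20) were lower too, by limma, with the Dgkq call lost without vehicle replicate 2 (adjusted p = 0.17) or butyrate replicates 1 (0.054) or 2 (0.11), and the Dgke call without butyrate replicate 2 (0.070). Against the 5 other compounds of the same collection days and times, Dgka (0.29, adjusted p = 0.0027), Dgkd (-0.17, 0.016) and Dgke (-0.15, 0.019) were called, 3 of 6 against 33.5% of genes, and Dgkh (-0.11) and Dgkq (-0.10) were not. These 5 were DOP, cysteamine, nicotinamide, nortriptyline and loxapine. With trichostatin A, also a histone deacetylase inhibitor, no member was called against vehicle (13.1% of genes). Against the 4 other compounds of its collection days and times Dgka was 0.27 higher with trichostatin A (limma adjusted p = 0.0095), 1 of 6 against 19.5% of genes. These 4 were meclizine, pizotifen, fingolimod phosphate and haloperidol. Their Dgka against vehicle was at -0.14, -0.19, 0.067 and 0.11, in that order, none called. With trichostatin A it was at 0.23 against vehicle (limma adjusted p = 0.11).

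**Figure D3:**
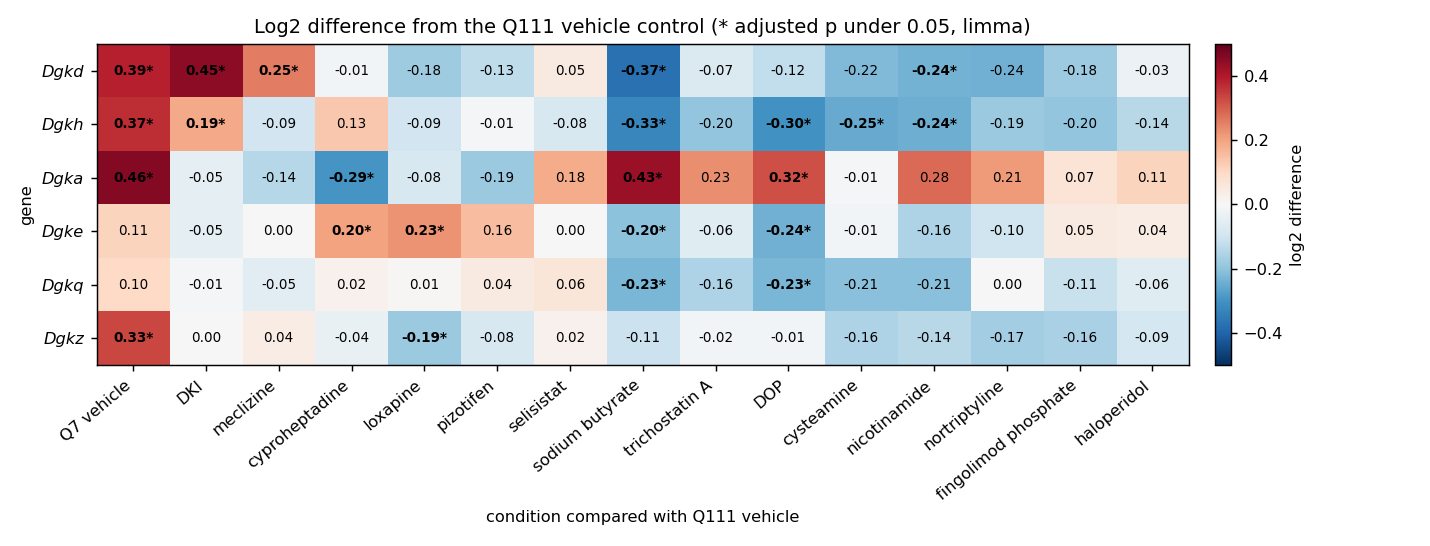
Log2 difference from STHdhQ111 vehicle (colour and printed value) of the 6 tested genes (vertical axis) in STHdhQ7 vehicle and with each of the 14 compounds (horizontal axis), with an asterisk where the limma adjusted p was under 0.05. Dgkd and Dgkh are higher with DKI and in STHdhQ7 and lower with sodium butyrate, where Dgka is higher.

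With DOP 4 members were called against vehicle (20.1% of genes): Dgka at 0.32, Dgkh at -0.30, Dgke at -0.24 and Dgkq at -0.23. The Dgka call was lost without vehicle replicates 1 or 3 (adjusted p = 0.051 and 0.097) or DOP replicate 2 (0.14), and the Dgkq call without vehicle replicates 1 or 2 (0.067 and 0.24) or any of the DOP samples (0.072 to 0.095). Against compounds of the same days and times, Dgke (-0.19, limma adjusted p = 0.0059) and Dgkz (0.14, adjusted p = 0.034) were called with DOP, 2 of 6 against 18.6% of genes. With loxapine 2 members were called (21.9% of genes). Dgke was 8.31, 8.26 and 8.27 with loxapine against 8.05, 8.08 and 8.03 with vehicle, 0.23 ± 0.064 higher (SE, log2, limma adjusted p = 0.0093), and against compounds of the same days and times the difference was 0.37 (adjusted p = 4.3e-07). Dgkz was at -0.19 with loxapine, a call lost without vehicle replicate 3 (adjusted p = 0.19) or loxapine replicates 1 (0.058) or 3 (0.089). In the comparison within days and times, which called 33.1% of genes, Dgka (-0.33), Dgkq (0.18) and Dgkh (0.17) joined Dgke, for 4 of 6, and Dgkz did not pass. Against vehicle the same genes were at -0.08 (Dgka), 0.01 (Dgkq) and -0.09 (Dgkh) with loxapine, none called, so that Dgkh turned direction with the reference. This reference was the mean of sodium butyrate, DOP, nicotinamide, nortriptyline and cysteamine. Against vehicle these had, in that order, Dgka at 0.43, 0.32, 0.28, 0.21 and -0.0079. Their Dgkh was at -0.33, -0.30, -0.24, -0.19 and -0.25, and their Dgkq at -0.23, -0.23, -0.21, -0.0029 and -0.21.

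Cyproheptadine had 2 members called (35.6% of genes), Dgke at 0.20 and Dgka at -0.29. Dgka was 6.26, 6.26 and 6.33 with cyproheptadine, and its call was lost without vehicle replicate 2 (adjusted p = 0.13) or cyproheptadine replicate 2 (0.058), as was that of Dgke without cyproheptadine replicate 2 (0.084). Meclizine had 1 member called (26.8% of genes), Dgkd at 0.25 ± 0.073 (limma adjusted p = 0.0082), lost without meclizine replicate 1 (0.053) or 3 (0.065). Against compounds of its days and times, Dgkd was 0.36 higher with meclizine (adjusted p = 9.8e-06) and Dgka was at -0.20 (adjusted p = 0.047, limma), 2 of 6 against 26.7% of genes. Pizotifen had no member called against vehicle (17.9% of genes) and 2 against its days and times (14.9% of genes), Dgka at -0.25 and Dgke at 0.15. Against vehicle its Dgka was at -0.19 and its Dgke at 0.16 (limma adjusted p = 0.19 and 0.090). The reference for pizotifen was the mean of meclizine, trichostatin A, fingolimod phosphate and haloperidol. Their Dgka against vehicle was at -0.14, 0.23, 0.067 and 0.11, in that order, none called. The reference for meclizine held pizotifen in place of meclizine.

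Nicotinamide had Dgkh (-0.24) and Dgkd (-0.24) called against vehicle (10.4% of genes) and cysteamine had Dgkh (-0.25, 7.83% of genes). The compounds of their days and times included each other, sodium butyrate and DOP, and no vehicle sample was collected then. Against these references neither had a member called (0.351% and 0.425% of genes), with Dgkh at -0.01 for nicotinamide and -0.02 for cysteamine. These calls were also lost without single libraries: for cysteamine without any of the vehicle samples (adjusted p from 0.054 to 0.12) or cysteamine replicate 3 (0.30), and for nicotinamide without any vehicle sample or nicotinamide replicates 1 or 2 for Dgkh (0.052 to 0.23), and without vehicle replicates 1 or 2 or nicotinamide replicates 2 or 3 for Dgkd (0.092 to 0.16). No member was called against vehicle with selisistat (0.515% of genes), nortriptyline (3.83%), fingolimod phosphate (0.0597%) or haloperidol (0%, with 397 genes at an unadjusted p under 0.05 by limma). With fingolimod phosphate, Dgkd was at -0.19 against compounds of its days and times (limma adjusted p = 0.047), 1 of 6 against 5.24% of genes. The mean of meclizine, trichostatin A, haloperidol and pizotifen was the reference here. Their Dgkd against vehicle was at 0.25 (called), -0.071, -0.030 and -0.13, in that order. Fingolimod phosphate had Dgkd at -0.18 against vehicle, not called (limma adjusted p = 0.32). The part of meclizine in the call against this reference was not tested.

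The members differed in how much they varied and with what. The SD over the 16 condition means, with collection day removed, was 0.23 for Dgkd, 0.22 for Dgka, 0.19 for Dgkh, 0.13 for Dgke and Dgkz and 0.11 for Dgkq, on the log2 scale. Across the 16 condition means, which share samples, batches and the vehicle line, Pearson's r was 0.81 between the type II genes Dgkd and Dgkh (0.73 without STHdhQ7), 0.81 between Dgkq and Dgkh and 0.77 between Dgkd and Dgkz. Dgka ran against the rest in part, with r = -0.64 to Dgke (-0.84 without STHdhQ7). These values are descriptions over few points and carry no test. The genes with the pattern most like that of Dgkd, by Pearson's r over the 16 condition means, were Hira (0.96), Tnrc6c (0.94), Atr (0.94), Trim37 (0.94) and Vps8 (0.94), and the least like were Dusp14 (-0.93), Upf3b (-0.92) and Filip1l (-0.92).

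The genes around the kinase step were followed with DKI in 6 lists, which held 76 genes, of which 71 were tested and 31 called, 14 higher and 17 lower, against the same 42.3% of all genes. The median difference was -0.02 over the lists' genes. Of the phospholipase C genes, which make diacylglycerol, 6 of 10 were called, 5 of them lower: Plcd1 was at -0.53 ± 0.075 (SE, log2, adjusted p = 3.0e-07) and Plcb1 at -0.42 ± 0.087 (adjusted p = 1.3e-04), and Plch1 was 0.27 higher (limma). In the list of proteins that bind diacylglycerol, which also holds their relative Unc13d, 7 of 18 were called. Prkd2, a protein kinase D, was at -0.41 ± 0.059 (limma adjusted p = 4.6e-07) and Prkca, the classical protein kinase C alpha, at -0.28, and Unc13d (0.37) and Prkce (0.17, limma adjusted p = 0.049) were higher. All lists' calls rest on the same 3 vehicle and 3 DKI samples as the members' values.

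In the list of other enzymes that use diacylglycerol, which also holds the neighbouring lipases Pnpla2 and Mgll (neither called), 4 of 10 were called, all higher. Dgat2, which makes triacylglycerol from it, was 0.68 ± 0.096 higher (SE, log2, limma adjusted p = 3.4e-07) and Cept1, which makes phosphatidylcholine and phosphatidylethanolamine from it, 0.34 higher. Of the enzymes that form or use phosphatidic acid, 8 of 16 were called, 4 in each direction. Of those that form it, the acyltransferase Agpat5 was 0.53 ± 0.052 higher (limma adjusted p = 1.2e-10) and Pld2, a phospholipase D, was at -0.37. The phosphatidic acid phosphatases Lpin1 and Lpin3 went in opposite directions, with Lpin1 at -0.60 ± 0.072 (limma adjusted p = 1.1e-08) and Lpin3 0.21 higher.

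Of the phosphatidylinositol resynthesis genes 4 of 12 were called: Cdipt, the phosphatidylinositol synthase (0.23), and Pitpnb (0.12) were higher, and Pi4ka, a phosphatidylinositol 4-kinase (-0.35), and Pitpna (-0.25) were lower. Among related lipid kinases 2 of 5 were called, Sphk2, a sphingosine kinase, at 0.53 and the ceramide kinase gene Cerk at -0.19. By fits with only the compared samples, 17 of the 71 genes were called, where 25.3% of all genes were. With meclizine 17 of the 71 were called, 8 higher and 9 lower (26.8% of all genes), and in STHdhQ7 43 were, 27 higher and 16 lower (55.8% of all genes).

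**Figure D4:**
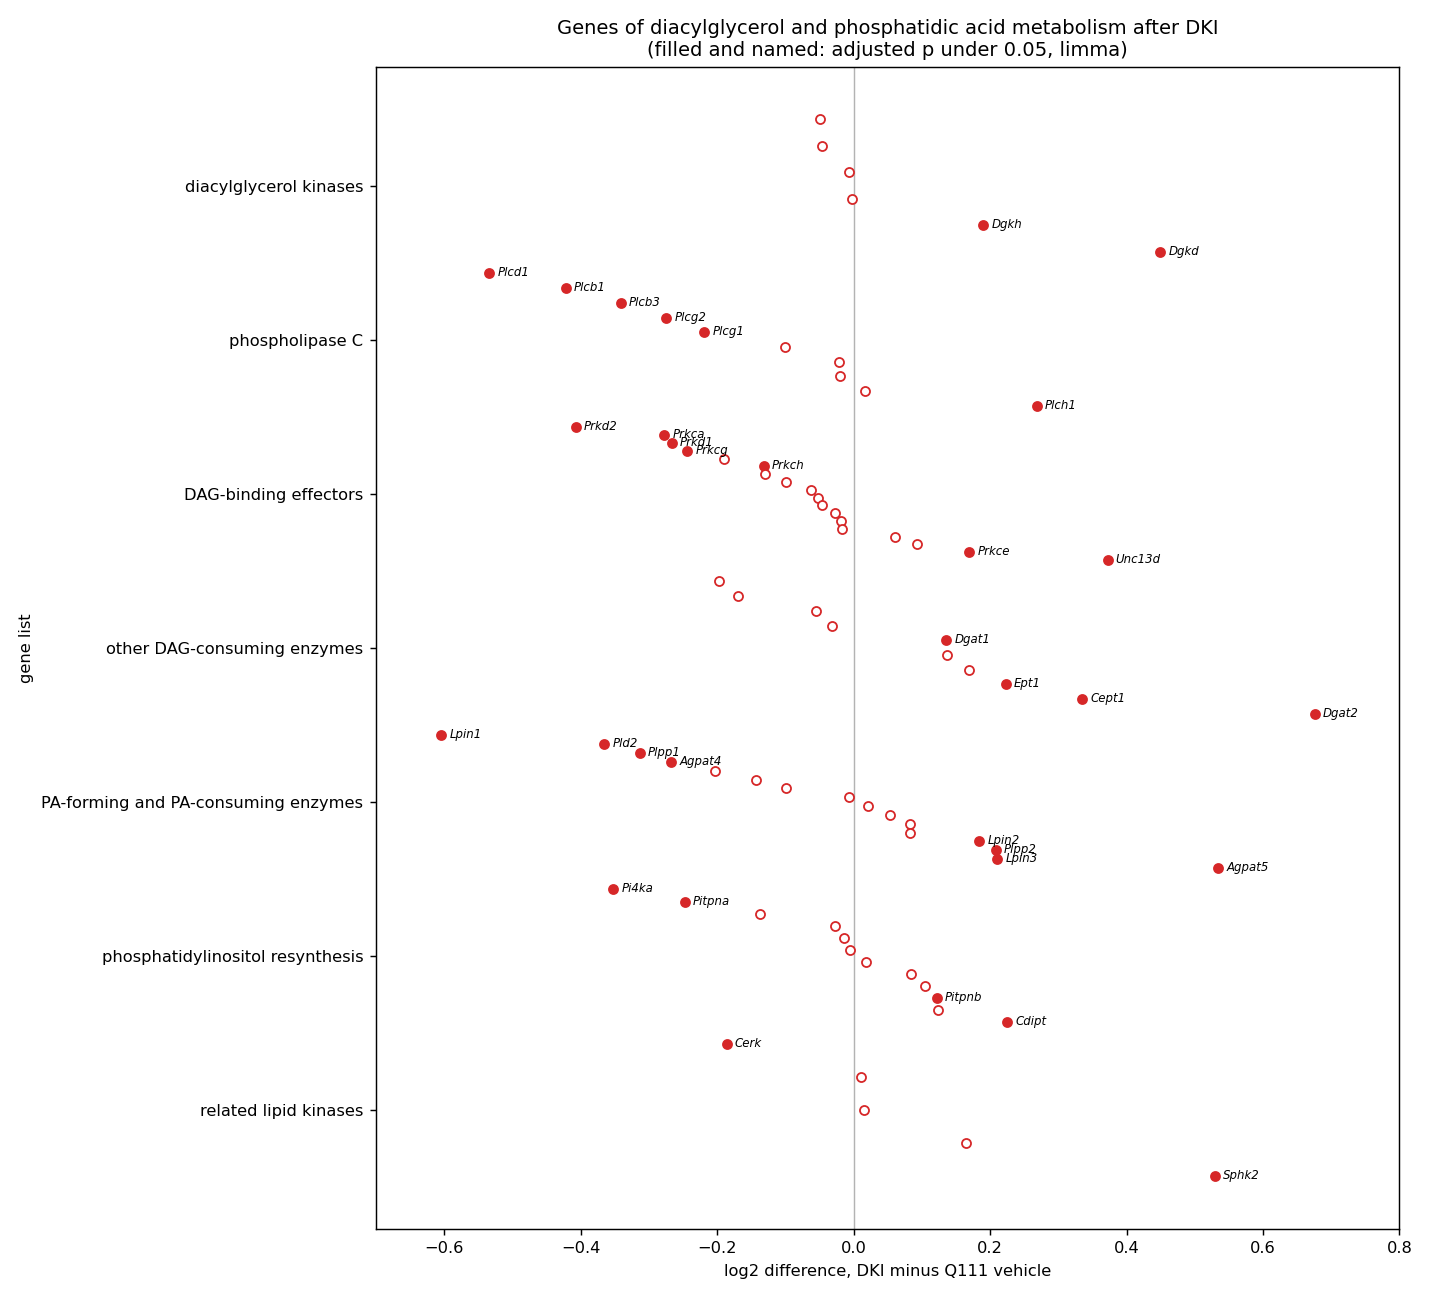
Log2 difference between DKI and STHdhQ111 vehicle (horizontal axis) of the tested diacylglycerol kinases and of the genes of 6 lists around diacylglycerol (DAG) and phosphatidic acid (PA), listed on the vertical axis, with 1 circle a gene, filled and named where the limma adjusted p was under 0.05. Of the kinases, Dgkd (0.45) and Dgkh (0.19) are filled and the 4 others, near 0, are not. The kinases were not tested against each other. The called enzymes that use diacylglycerol lie to the right of 0.

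The label of striatal progenitor cells was checked against marker genes. On the log2 scale Vim was 15.4 in the STHdhQ111 vehicle, while the progenitor genes Nes (4.96) and Sox2 (4.81) were low, Notch1 was 8.05 and Sox1 was near the lowest values of the table. In STHdhQ7 Nes was 10.95 and Sox2 8.91. The dopamine receptor gene Drd1 and the astrocyte gene Gfap were near the lowest values, while others of their lists were higher (Foxp1 9.99, Meis2 7.51, Slc1a3 7.21 and Slc1a2 5.10), and collagen genes were high (Col1a1 14.6). Of the microglia and blood markers Ptprc stood at 10.6 in STHdhQ111, and Aif1, Cx3cr1, P2ry12 and Itgam were near the lowest values. With DKI the summed level of the mesenchymal markers (6 of 7 above the minimum) lay between 14.4 and 14.6 on the log2 scale, against 15.3 to 15.4 with vehicle, and that of the progenitor markers (7 of 10) between 14.8 and 15.1, against 15.4 to 15.5. The progenitor sum is nearly all Vim (15.4 with vehicle and 14.9 with DKI). Within that list Notch1 went from 8.05 to 7.61, Sox2 from 4.81 to 4.53, Hes1 from 5.68 to 5.48 and Nes from 4.96 to 4.82. In the other direction, Msi1 went from 4.23 to 4.56 and Pax6 from 2.81 to 2.86. None of these marker differences was tested. The part of the markers in the members' differences was not tested, and a change in the share of a kind of cell cannot be told apart from a change per cell in these bulk samples.

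On the same build and annotation Dgka lies at chr10:128720134-128744855, Dgke at chr11:89035179-89066850, Dgkq at chr5:108646693-108669672 and Dgkz at chr2:91932824-91975864, all on the minus strand. Exons of Dgka overlap those of Pmel on the other strand, and Dgkd overlaps Usp40, Dgke overlaps Dgkeos, and Dgkq overlaps Idua and Tmem175 in the same way, as does Dgkz with Gm9821. Dgkh overlaps Gm48998 on the same strand. The library kit marks strand, and the strand setting used in counting is not given in the sources used here, so reads of these partners may be included in the members' values.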

How the data were processed

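The authors prepared poly(A) RNA libraries with a directional kit and sequenced single-end reads. Per the labels and the methods, reads were trimmed with Trimmomatic 0.36 and quantified with RSEM on GRCm38.p5, and DESeq2 is named among the tools. The deposited values are normalized abundances on a log2 scale whose transformation is not given in the sources used here. Low genes hardly vary on it, and differences of low genes may be understated. No counts were used, so depth per sample is unknown. Summed abundances differed by at most 1.11-fold between samples.

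The 48 samples were grouped by their labels. Genes with a symbol and a mean of at least 1 (13409) were fitted together in limma 3.58.1 (R 4.3.3) with condition and collection day as terms and a variance trend, leaving 30 residual degrees of freedom. P-values were adjusted by Benjamini-Hochberg within each comparison, with a threshold of 0.05. The code was tested on simulated data. Comparison within collection days and times was added after seeing the data. Its reference was the mean of the other compounds of the same days and times, which could have called members themselves. Gene lengths came from GENCODE M21 exons on GRCm38. The named genes were all members, in each list the called genes with the 2 largest rises and falls with DKI, and the 5 most and 3 least similar to the member with the largest SD. The members, lists and tests were chosen with earlier results of these data known. Replicate numbers did not pair the samples. Plots used matplotlib 3.10.9 under Python 3.11.15.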

Additional observations from a re-analysis of the deposited data

How the results depend on the processing

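Called members in the comparisons of DKI and STHdhQ7 with vehicle, of DKI with other compounds, and of each compound with vehicle were recounted under the alternatives listed here and others, and the cause of each change was not tested. The call of Dgkd with DKI and those of Dgka, Dgkd and Dgkz in STHdhQ7 held in all of them, and that of Dgkh in STHdhQ7 in those that tested it. A minimum mean of 6, which drops Dgkh, left 1 called member with DKI against vehicle, 0 against meclizine and 1 against the mean of 13 compounds, and gave 1 with nortriptyline (51.8%, 10.4%, 56.7% and 5.58% of genes). Fitting only the compared samples, with fewer degrees of freedom, gave 1 member with DKI, 1 with cyproheptadine, 1 with fingolimod phosphate and 3 with sodium butyrate, and for DKI 0 against meclizine, 2 against loxapine and 0 against selisistat, with 17 genes of the lists. The share of all genes called moved as well, to 25.3% with DKI, 23.2% with cyproheptadine, 4.41% with fingolimod phosphate, 30.3% with sodium butyrate, and 0.104%, 24.3% and 12.6% for DKI against meclizine, loxapine and selisistat. Comparing within collection days and times gave 0 for cysteamine and nicotinamide, 1 for fingolimod phosphate and trichostatin A, 2 for DOP, meclizine and pizotifen, 3 for sodium butyrate and 4 for loxapine. Rescaling samples by the median difference gave 1 with nortriptyline (4.18% of genes) and turned Dgkz with DKI to 0.0016. Leaving out 1 sample gave 1 to 2 members for DKI, 0 to 2 for DKI against meclizine, 0 to 1 for nortriptyline, cysteamine, meclizine, nicotinamide and trichostatin A, 0 to 2 for cyproheptadine, 2 to 3 for DOP and 1 to 2 for loxapine, and for members not called with DKI it moved Dgka from -0.13 to 0.034, Dgkq from -0.067 to 0.080 and Dgkz from -0.041 to 0.064. The share of all genes called moved too. Without 1 vehicle sample it was 36.6% to 39.5% with DKI, 0.567% to 5.85% with nortriptyline and 1.28% to 11.6% with cysteamine. It was 19.1% to 24.2% with meclizine, 2% to 15% with nicotinamide and 6.94% to 12.1% with trichostatin A. It was 28.4% to 33.1% with cyproheptadine, 11.5% to 20.6% with DOP and 12.8% to 20.3% with loxapine. Without 1 DKI sample, DKI against meclizine called 316 to 1549 genes. With the longest transcript as length Dgka ranked 4, Dgke 5, Dgkb 9 and Dgkk 10, and with the longest coding sequence Dgke ranked 2, Dgkd 3, Dgkq 4, Dgkb 9 and Dgkk 10.

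Samples with the same replicate number did not deviate together (mean correlation of deviations -0.0487, and 0.0245 for other numbers). With the replicate number as a replicate block in place of the collection day, 2 members were called with DKI and 4 in STHdhQ7 (43% and 55.9% of genes), and no count moved by over 1.5 times. Without a day term, 2 were called with cysteamine and 1 with nortriptyline (9.16% and 4.83% of genes). With 3 samples a condition and no counts, the precision of single values cannot be separated from their depth.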
